A study of Mus musculus with 23 samples.

Results

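Cholesterol is built in the cell from acetyl-CoA, and 27 genes of this route and of its control were followed in mouse ovary. They were picked by gene symbol from a list of pathway genes; the picking rule uses no measured value, but the list was drawn up with earlier results of these data known. All 27 were found among the 24716 genes of the count table. The list holds Acat2, which supplies acetoacetyl-CoA, 7 enzymes from HMG-CoA synthase to the isoprenoid diphosphates, 11 enzymes from squalene to cholesterol, 4 genes of sterol sensing, the sterol carrier Stard4, and 3 genes of the liver X receptor (LXR) branch. Ovaries of female, wild-type mice of the inbred strains C57BL/6J, CAST/EiJ and NZO/HlLtJ were profiled by sequencing of polyA RNA. At 6 weeks of age the mice were put on a control diet, with 10% fat and fiber, or on a diet with 44% fat and fiber that was high in sugar as well, and at 15 weeks the ovaries were collected. There were 3 libraries of C57BL/6J on 10% fat and 4 in each of the other 5 groups, 23 in all.

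The ovary both makes cholesterol and takes it up from lipoproteins, and its theca, granulosa and luteal cells turn it into steroid hormones. When sterols in the endoplasmic reticulum are scarce, SCAP escorts the membrane-bound factor SREBP2 to the Golgi, where it is cut and released to switch on the synthesis genes. When sterols are plentiful, INSIG proteins hold SCAP back, and oxysterols activate LXRs, which switch on genes of cholesterol export and the degradation of lipoprotein receptors. NZO/HlLtJ mice become obese and are prone to diabetes, CAST/EiJ descends from wild castaneus mice, and C57BL/6J is a widely used laboratory strain. Because the reference build, GRCm38, is the C57BL/6J genome, an effect of sequence differences on counting cannot be told apart from a strain difference. The labels give no cycle stage, and fat cannot be told apart from sugar.

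Library totals lay between 31.94 and 45.85 M estimated counts, with a mean of 39.02 ± 4.126 M (SD, n = 23). All 27 genes passed the filter on low counts, with estimated counts from 126 to 56537 in a library. Levels are given as CPM, the count scaled to a fixed library total, and tests are edgeR's quasi-likelihood tests with Benjamini-Hochberg adjustment over the 20189 genes tested. Markers of the ovary were present throughout: summed levels were 1150 to 5160 CPM for 9 granulosa genes and 105 to 510 CPM for 8 oocyte genes. RNA of neighbouring tissue stood out in CAST/EiJ 10% fat replicate 2, with 5210 CPM of oviduct markers (57.1 to 59.1 in the other 3 of its group) and 3270 CPM of adipocyte markers (164 to 279). C57BL/6J 44% fat replicate 1 had 255 CPM of oviduct markers, against 16.9 to 46.7 in the other 3. CAST/EiJ 44% fat replicates 1 and 2 had 906 and 536 CPM of adipocyte markers, against 149 and 206. In bulk tissue, fewer cells of a type and less RNA per cell cannot be told apart.

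SREBP2 binds sterol regulatory elements near start sites, often beside sites for the factors NF-Y and Sp1, and 23 of the genes had a promoter in RefSeq (build GRCm38.p6; 250 bases before to 50 after the start). The core TCACNCCAC, searched on both strands, was found for 1 of the 23, Hmgcs1, against 1.44% of all 27025 genes with a promoter entry. The 250 bases before the Hmgcs1 start site (chr13:119690101-119690350, plus strand) are shown because they hold that match, in capitals, which begins 137 bases before the start.
Hmgcs1: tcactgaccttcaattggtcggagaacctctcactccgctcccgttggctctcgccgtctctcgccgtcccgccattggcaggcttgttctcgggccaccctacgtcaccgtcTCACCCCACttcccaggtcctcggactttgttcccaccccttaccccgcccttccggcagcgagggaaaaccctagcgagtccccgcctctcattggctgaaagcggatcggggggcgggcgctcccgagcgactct
The NF-Y box CCAAT, on either strand, was found for 19 of the 23 (82.6%) against 41.1% of all genes. The Sp1 box GGGCGG was also found for 19 of the 23, against 38.2%. The palindromic E-box CACGTG was found for 5 of the 23 (21.7%, against 8.09%), namely Hsd17b7, Sc5d, Dhcr7, Scap and Insig1. A CCAAT box read on the minus strand and a GGGCGG box can share end letters. A match describes the letters in this window and is not a measured site.

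Per kilobase of exons, averaged over all libraries, Hmgcs1, the cytosolic HMG-CoA synthase, had the highest level of the 27 genes, at 71.5 CPM per kb. Hsd17b7, the sterol ketoreductase that is also known as a prolactin receptor-associated protein of the corpus luteum, followed at 43.4 CPM per kb. The SREBP escort Scap stood at 38.2, the farnesyl diphosphate synthase Fdps at 30.9 and the sterol desaturase Sc5d at 29.6 CPM per kb. The lowest were the sterol reductase Tm7sf2, at 2.96 CPM per kb, and the LXR alpha gene Nr1h3, at 2.83. The counts of 7 genes (Idi1, Fdps, Ggps1, Fdft1, Tm7sf2, Scap and Acat2) were not whole numbers in more than 15 libraries, as when reads are divided between features, and their levels are less certain. A gene on the other strand overlaps Mvd, Ggps1, Fdft1, Lss, Cyp51, Scap and Insig2, and whether the counting used strand is not given in the sources used here. Genes on the same strand overlap Fdps, Tm7sf2 and Nr1h3, which counting by strand would not separate.

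**Figure D1:**
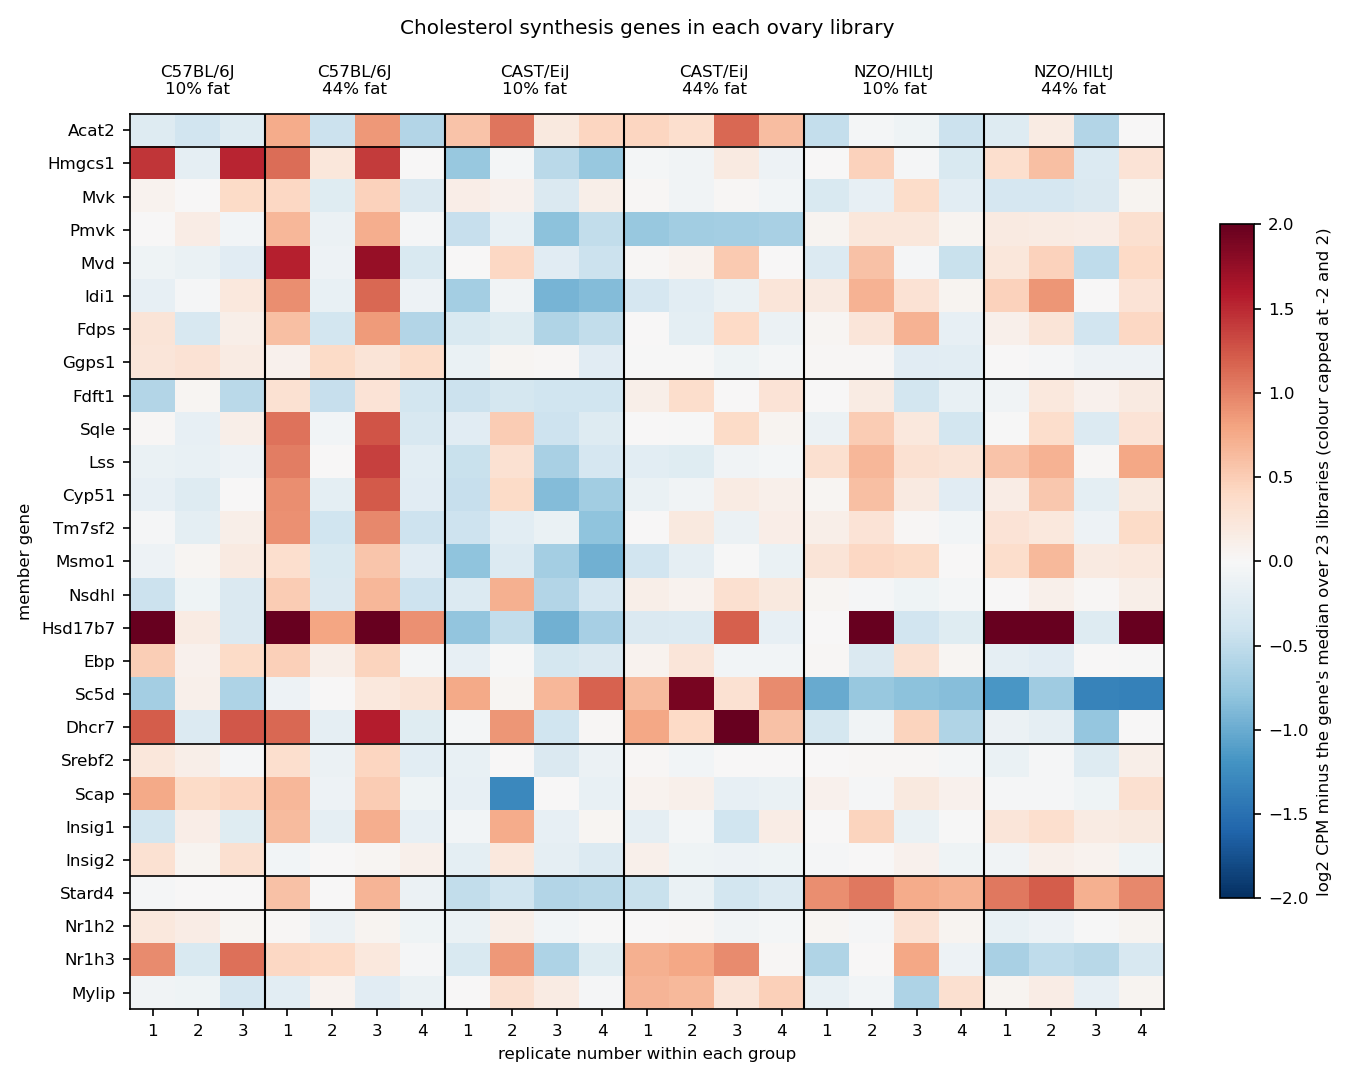
Heat map of the 27 genes (rows, ordered by role) in the 23 libraries (columns, by group and replicate number), as log2 CPM minus the gene's median over all libraries, with colour capped at -2 and 2. Replicates 1 and 3 of C57BL/6J on 44% fat are high for most synthesis enzymes, Stard4 is high in all 8 NZO/HlLtJ libraries, and Sc5d is low there.

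The first question was whether the 44% fat diet changed these genes within a strain. None of the 27 passed the threshold (adjusted p under 0.05) in any strain or on average over the strains by edgeR. In C57BL/6J, edgeR called 0 of 27 (0% of all genes tested were called), with 7 of 27 at an unadjusted p under 0.05 against 8.83% of all genes. In CAST/EiJ, edgeR called 0 of 27 (0.624% of all genes), with 3 at an unadjusted p under 0.05 against 13.5%. In NZO/HlLtJ, it called 0 of 27 (0% of all genes), with 0 at an unadjusted p under 0.05 against 3.52%. On average over strains it called 0 (0% of all genes), with 10 of 27 at an unadjusted p under 0.05 against 5.89%. DESeq2 called 1 gene, Fdft1 in CAST/EiJ, and limma on the authors' variance-stabilised values called 0.

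Estimates for the genes leaned to higher values on 44% fat. In C57BL/6J, 19 of 27 estimates were positive, with a median log2 fold change of 0.313 (all genes, 0.0118, 52.1% positive). In CAST/EiJ, 23 of 27 were positive, with a median of 0.253 (all genes, -0.0213, 45.8% positive). In NZO/HlLtJ, 18 of 27 were positive, with a median of 0.0581 (all genes, -7e-04, 49.6% positive). Of the 11 enzymes from squalene to cholesterol, 9, 11 and 8 had positive estimates in C57BL/6J, CAST/EiJ and NZO/HlLtJ, with medians of 0.453, 0.361 and 0.0845. Of the 7 mevalonate enzymes 5 had positive estimates in each strain, with medians of 0.213, 0.189 and 0.0581. The 4 sterol-sensing genes had medians of -0.0915, 0.0953 and -0.0118. The genes are not independent of each other, and these counts carry no test.

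**Figure D2:**
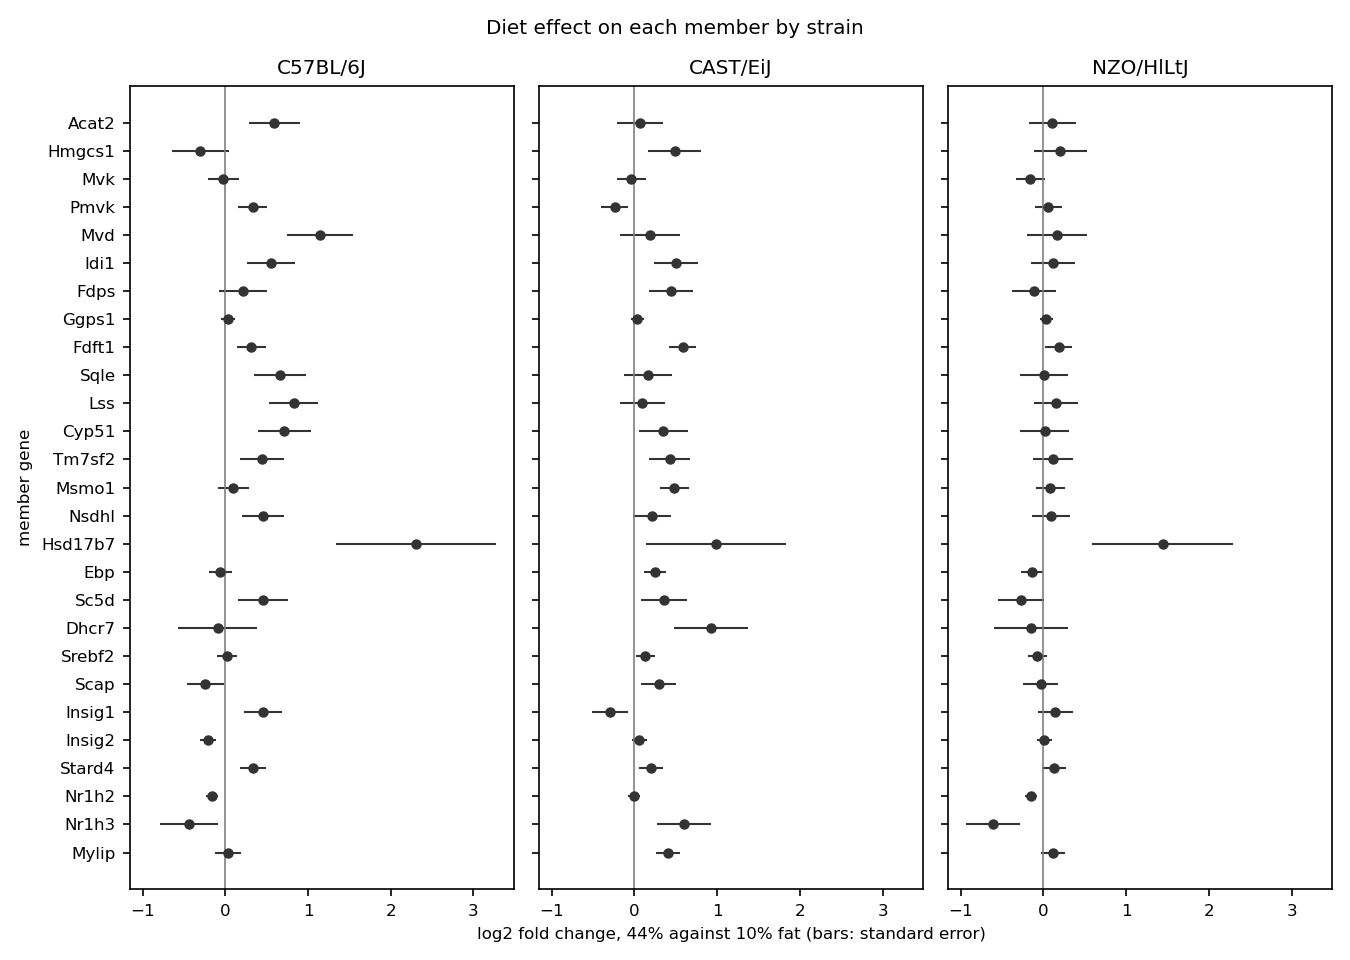
Diet effect on each gene as the log2 fold change of 44% against 10% fat (points) with its standard error (bars), in 1 panel per strain. Most points for the sterol enzymes lie right of 0 in C57BL/6J and CAST/EiJ, Hsd17b7 has the largest estimate and the widest error in C57BL/6J (2.31 ± 0.973), and none passed the threshold.

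In C57BL/6J on 44% fat the libraries split into high and low ones for most of the genes. Replicates 1 and 3 were the highest 2 of the 4 libraries for 22 of the 27 genes (81.5%) and for 16 of the 18 synthesis enzymes (88.9%), against 28.4% of all genes. These libraries were singled out after their values were seen. Over all genes the opposite pair, replicates 2 and 4, was the highest 2 for 27.6%, and each other pair for 9.54% to 12.8%. The pairing of libraries thus ran through all genes and was not particular to these 27. A synthesis score, each library's median over the 18 enzymes of log2 CPM less the enzyme's median over all libraries, was 0.785 and 0.91 in replicates 1 and 3 and -0.132 and -0.223 in replicates 2 and 4. Among the 10% fat libraries the 3 scores were -0.00918, -0.0519 and 0.116, so the groups overlapped. Some other genes of cholesterol handling were looked at after the split was seen. The lipoprotein receptors Lrp8 and Scarb1 and the luteal marker Star followed it, Lipa ran the other way, and Abcg1 did neither. Lrp8 stood at 113 and 141 CPM in replicates 1 and 3 and at 41.6 and 32.1 in replicates 2 and 4, and Scarb1 at 1170 and 1420 against 602 and 679. Star stood at 659 and 863 CPM against 363 and 288. The lysosomal lipase Lipa stood at 68.5 and 88.8 CPM against 93.4 and 105, and the sterol exporter Abcg1 at 23.3 and 30.4 against 27 and 27.7. The summed level of 8 luteal markers, Scarb1 and Star among them, was 15600 and 16400 CPM in replicates 1 and 3. It was 11000 and 11500 CPM in replicates 2 and 4, and 16400, 11300 and 14300 in the 3 libraries on 10% fat. The part of luteal RNA in the pattern was not tested. Oviduct markers summed to 255 and 38.7 CPM in replicates 1 and 3 on 44% fat and to 16.9 and 46.7 in replicates 2 and 4.

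**Figure D3:**
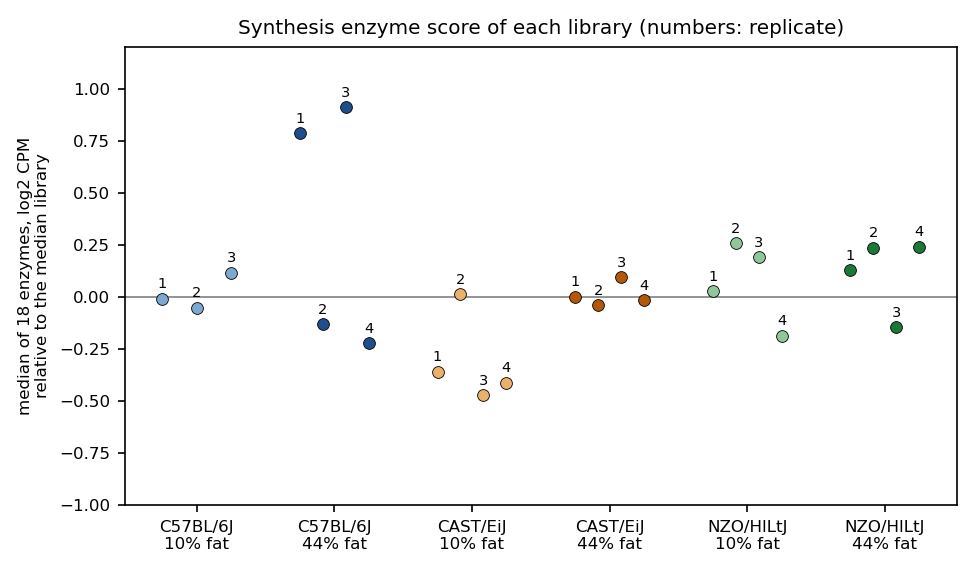
Synthesis score of each library (points, labelled with the replicate number) in the 6 groups: the median over 18 enzymes of log2 CPM relative to the median of the 23 libraries. Replicates 1 and 3 of C57BL/6J on 44% fat, at 0.785 and 0.91, lie above every other library, and CAST/EiJ 10% fat replicates 1, 3 and 4 lie lowest.

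Mvd (GRCm38 gene span chr8:122433596-122443422), the mevalonate diphosphate decarboxylase, shows this split. In C57BL/6J it stood at 14, 13.5 and 12.7 CPM on 10% fat and at 43.3, 13.8, 49.3 and 12 CPM on 44% fat. Only replicates 1 and 3 on 44% fat lay above the 10% fat libraries, and the log2 fold change of 1.14 ± 0.402 (SE) had an adjusted p of 0.451 by edgeR. In CAST/EiJ Mvd was 14.9, 19.8, 12.7 and 11 CPM on 10% fat and 15, 15.5, 21.3 and 14.8 on 44% fat, and in NZO/HlLtJ 12.2, 22.3, 14.6 and 10.9 against 17.4, 20.3, 10.4 and 19.5. In both of these strains the libraries of the diets overlapped.

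Lss (chr10:76531588-76557138), lanosterol synthase, closes the squalene epoxide into the first sterol. In C57BL/6J it was 42, 41.8 and 43.1 CPM on 10% fat and 94.3, 46.2, 119 and 40.1 on 44% fat, a log2 fold change of 0.83 ± 0.293 with an adjusted p of 0.457 by edgeR. Replicates 1 and 3 on 44% fat were again the high ones. In CAST/EiJ it was 34.1, 56.9, 29.4 and 36.7 CPM on 10% fat and 40, 39.1, 44 and 45 on 44% fat, and in NZO/HlLtJ 57.7, 73.6, 56.9 and 55.2 against 68.8, 75.2, 46.8 and 78.6. The CAST/EiJ 10% fat library with most oviduct RNA, replicate 2, was the highest of that strain.

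Fdft1 (chr14:63145153-63177793), squalene synthase, commits farnesyl diphosphate to sterols. In CAST/EiJ it stood at 71.3, 75, 72.9 and 72.6 CPM on 10% fat and at 104, 122, 96.2 and 115 CPM on 44% fat, so every 44% fat library lay above every 10% fat library. The log2 fold change was 0.58 ± 0.162, with an adjusted p of 0.103 by edgeR and 0.0266 by DESeq2. Over the alternatives the adjusted p ran from 0.0266 to 0.347, and DESeq2 alone brought it under 0.05. In C57BL/6J Fdft1 was 63.9, 98.1 and 65.6 against 118, 69.5, 115 and 74.5 CPM, and in NZO/HlLtJ 95.6, 107, 73.8 and 86.3 against 91.5, 111, 101 and 108, with overlap in both. Averaged over strains the log2 fold change was 0.36 ± 0.0963, with an adjusted p of 0.629 by edgeR. Ctsb is the gene that overlaps Fdft1 on the other strand.

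Msmo1 (chr8:64718139-64733792), the sterol methyl oxidase, was 80.4, 117, 88.5 and 72.2 CPM in CAST/EiJ on 10% fat and 108, 125, 140 and 128 on 44% fat, with an adjusted p of 0.203 by edgeR (log2 fold change 0.48 ± 0.174). Only replicate 2 on 10% fat reached the range of the 44% fat libraries. In C57BL/6J Msmo1 was 131, 145 and 159 CPM against 178, 114, 207 and 121, and in NZO/HlLtJ 169, 188, 183 and 141 against 179, 221, 160 and 164. Mylip (chr13:45389742-45412019), the LXR target that marks lipoprotein receptors for degradation, was 26.6, 33.1, 29.7 and 26.3 CPM in CAST/EiJ on 10% fat and 42.6, 41.8, 31.4 and 37.1 on 44% fat, with an adjusted p of 0.204 by edgeR (0.40 ± 0.145). Its libraries overlapped by 1 on each diet. Mylip was 25.4, 25 and 21.1 against 22.9, 27.9, 22.7 and 24.3 CPM in C57BL/6J, and 23.9, 25.7, 17.4 and 33.2 against 27.6, 29.5, 23.7 and 27.5 in NZO/HlLtJ.

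Hsd17b7 (chr1:169949535-169969241) had the widest spread of the 27 genes between libraries of a group in C57BL/6J and NZO/HlLtJ, though not in CAST/EiJ. It was 297, 64 and 46.8 CPM in C57BL/6J on 10% fat and 1210, 98.3, 1270 and 107 CPM on 44% fat, a log2 fold change of 2.31 ± 0.973 with an adjusted p of 0.521 by edgeR. Leaving out replicate 1 of C57BL/6J on 10% fat gave 3.61, with an adjusted p of 0.881. In CAST/EiJ it was 32.9, 40.4, 29.3 and 36 CPM on 10% fat and 46.5, 47.3, 130 and 50.8 on 44% fat, with no overlap. In NZO/HlLtJ it was 57, 279, 43.7 and 48 CPM against 399, 371, 47.9 and 344. In CAST/EiJ a single library on 44% fat, replicate 3, stood above the rest, while in C57BL/6J and NZO/HlLtJ high and low libraries occurred on both diets. The 8 luteal markers summed to 9280, 9090, 7370 and 10400 CPM in the NZO/HlLtJ 44% fat libraries. On 10% fat they summed to 9360, 9110, 9280 and 7330 CPM in NZO/HlLtJ and to 16400, 11300 and 14300 in C57BL/6J. Averaged over strains the diet change of Hsd17b7 was 1.58 ± 0.512, with an adjusted p of 0.744 by edgeR. The part of luteal RNA in these values was not tested.

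**Figure D4:**
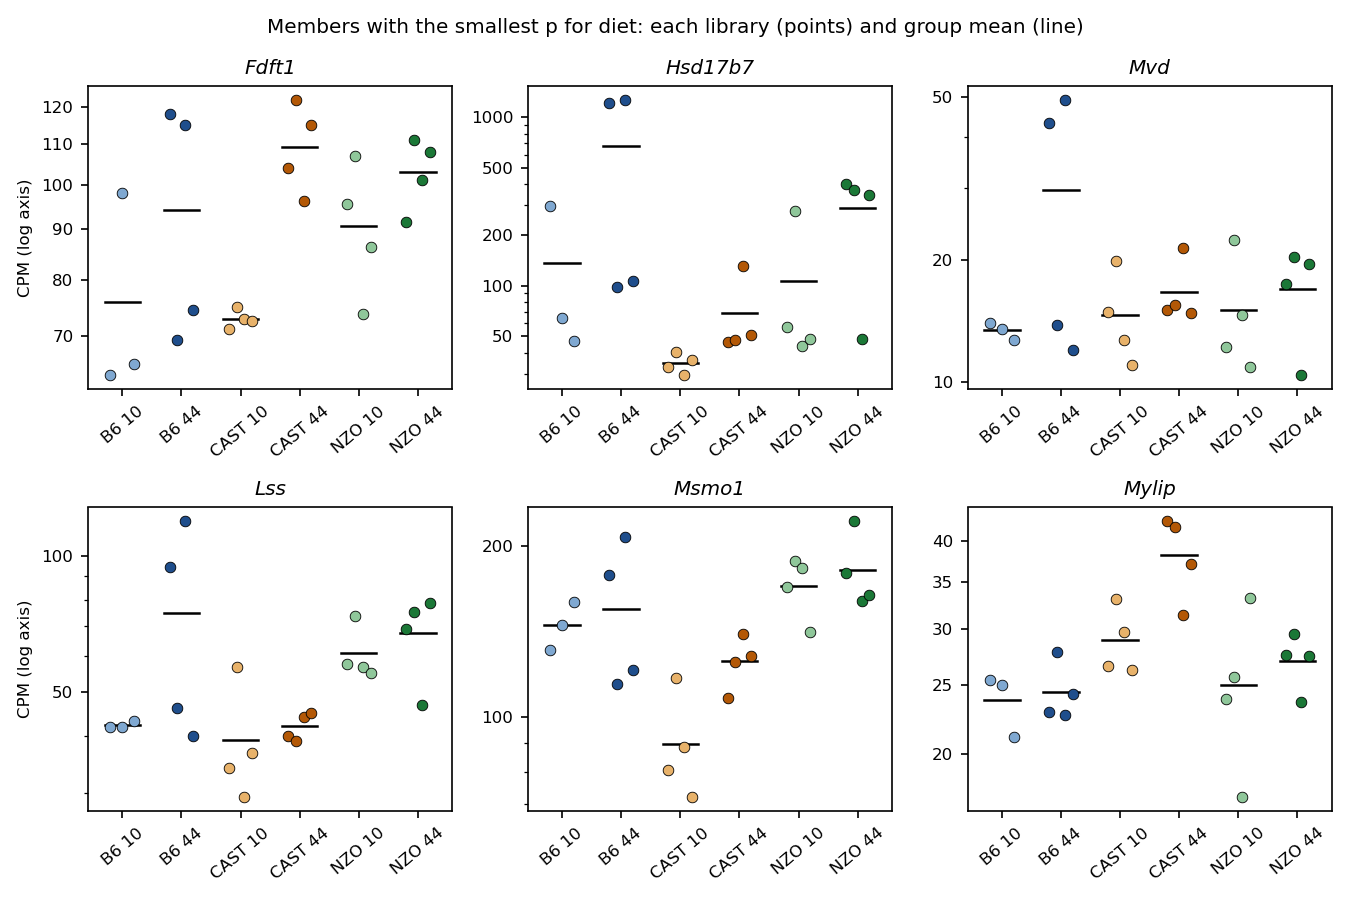
CPM (log axis) of the 6 genes with the smallest p for diet, in each library (points) and as the group mean (line), with B6, CAST and NZO for the strains and 10 and 44 for percent fat. Fdft1 is higher in all 4 CAST/EiJ libraries on 44% fat, while Mvd, Lss and Hsd17b7 are high in 2 of the 4 C57BL/6J libraries on 44% fat.

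In CAST/EiJ, where the 44% fat libraries did not split, 4 of the 27 genes (Fdps, Fdft1, Tm7sf2 and Hsd17b7) were higher in every 44% fat library than in every 10% fat library, against 4% of all genes, and 0 were lower, against 1.88%. In C57BL/6J 0 of the 27 were higher and 0 lower without overlap, against 3.20% and 4.88% of all genes, and in NZO/HlLtJ 0 and 0, against 1.32% and 1.64%. In CAST/EiJ, replicate 2 on 10% fat, the library with oviduct and adipocyte RNA, was the highest of its group for 23 of the 27 genes, against 35.4% of all genes. Without it, 18 of the 27 genes did not overlap and were higher on 44% fat, against 8.31% of all genes. None were lower, against 6.15%. These 18 were 13 synthesis enzymes together with Srebf2, Insig2, Stard4, Nr1h3 and Mylip. Because that library was the highest for most of the 27 genes, leaving it out raises their count more than that of all genes. The count of 18 therefore carries no weight as a test. The edgeR fit without that library still called 0 of the 27, with 10 at an unadjusted p under 0.05 against 14.6% of all genes, a median log2 fold change of 0.364, and a smallest adjusted p of 0.0975, for Msmo1. The synthesis scores were -0.359, 0.0126, -0.473 and -0.412 on 10% fat and 0, -0.0393, 0.0949 and -0.0168 on 44% fat. Replicate 3 was the highest of the CAST/EiJ 44% fat libraries for 12 of the 27 genes, against 25.2% of all genes. In NZO/HlLtJ the scores were 0.0267, 0.257, 0.189 and -0.186 on 10% fat and 0.127, 0.235, -0.145 and 0.241 on 44% fat, with overlap. There replicate 3 on 44% fat was the lowest of its group for 18 of the 27 genes, against 28.2% of all genes. The replicates named here were singled out after their values were seen, so a share above that of all genes is partly built in.

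Markers of some cell types also moved with this diet comparison in CAST/EiJ, where 0.624% of all genes were called. The summed level of the 8 luteal markers was 5380 to 7540 CPM on 10% fat and 11100 to 13100 on 44% fat, and 1 of the 8, Cyp11a1, the enzyme that cleaves the cholesterol side chain, rose (log2 fold change 1.35 ± 0.268, adjusted p 0.0219 by edgeR). Of the 8 macrophage markers 6 rose, with summed levels of 148 to 188 CPM on 10% fat and 262 to 497 on 44% fat. None of these 16 markers was at 0 in any library. Of 9 granulosa markers 0 were called, with sums of 4400, 1150, 3990 and 4060 CPM on 10% fat and 3180, 2940, 2560 and 2950 on 44% fat. The part of these cell types in the values of the synthesis genes was not tested.

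Diet effects on the genes were not shown to differ between strains. For CAST/EiJ minus C57BL/6J edgeR called 0 of 27 (0.614% of all genes), with 3 at an unadjusted p under 0.05 (Pmvk, Insig1 and Nr1h3) against 16.0%. For NZO/HlLtJ minus C57BL/6J it called 0 (0% of all genes), with 0 at an unadjusted p under 0.05 against 3.92%. For NZO/HlLtJ minus CAST/EiJ it called 0 (0.0149% of all genes), with 1 at an unadjusted p under 0.05, Nr1h3, against 11.4%. DESeq2 called 0 in each. The Nr1h3 estimates were -0.44 ± 0.351 in C57BL/6J, 0.60 ± 0.328 in CAST/EiJ and -0.61 ± 0.331 in NZO/HlLtJ, and its difference between NZO/HlLtJ and CAST/EiJ was -1.21 ± 0.466 with an adjusted p of 0.347 by edgeR.

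The second question was how the strains differed, averaged over diets. Against C57BL/6J, CAST/EiJ had 13 of the 27 genes called, where 46.8% of all genes were called; 3 were higher (Sc5d, Acat2 and Mylip) and 10 lower (Hmgcs1, Pmvk, Idi1, Ggps1, Msmo1, Hsd17b7, Ebp, Scap, Insig2 and Stard4), and all genes had 23.2% higher and 23.6% lower. Against C57BL/6J, NZO/HlLtJ had 7 called, 1 higher (Stard4) and 6 lower (Hmgcs1, Ggps1, Ebp, Sc5d, Dhcr7 and Nr1h3), against 23.9% of all genes (11.6% higher and 12.3% lower). Against CAST/EiJ, NZO/HlLtJ had 10 called, 6 higher (Stard4, Pmvk, Msmo1, Idi1, Lss and Hsd17b7) and 4 lower (Sc5d, Acat2, Mylip and Dhcr7), against 48.1% of all genes (23.4% higher and 24.8% lower). Median log2 fold changes of the 27 were -0.309, -0.127 and 0.0715, against 0.0139, -0.00065 and -0.0157 for all genes. The 3 comparisons share libraries. Without overlap of libraries, 0 of the 27 were higher and 3 lower (Pmvk, Ggps1 and Stard4) in CAST/EiJ than in C57BL/6J, against 7.84% and 8.03% of all genes. In NZO/HlLtJ against C57BL/6J 1 was higher (Stard4) and 2 lower (Ggps1 and Sc5d), against 3.85% and 3.93%. In NZO/HlLtJ against CAST/EiJ 3 were higher (Pmvk, Msmo1 and Stard4) and 2 lower (Sc5d and Acat2), against 8.66% and 8.13%.

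Markers of cell types were also called between the strains, and their part in the differences of the 27 genes was not tested. Over all genes, 46.8% were called for CAST/EiJ against C57BL/6J, 23.9% for NZO/HlLtJ against C57BL/6J and 48.1% for NZO/HlLtJ against CAST/EiJ. Against C57BL/6J, luteal markers had 4 of 8 lower in CAST/EiJ and 3 of 8 lower in NZO/HlLtJ, with none higher. Their summed level was 11000 to 16400 CPM in C57BL/6J, 5380 to 13100 in CAST/EiJ and 7330 to 10400 in NZO/HlLtJ. Of 8 macrophage markers 5 were lower and 1 higher in CAST/EiJ, and 5 lower and 0 higher in NZO/HlLtJ, than in C57BL/6J. Of 10 adipocyte markers 8 were higher in CAST/EiJ than in C57BL/6J and 7 lower in NZO/HlLtJ than in CAST/EiJ, with sums of 123 to 312 CPM in C57BL/6J, 149 to 3270 in CAST/EiJ and 174 to 235 in NZO/HlLtJ. Of 9 oviduct markers tested 4 were higher in CAST/EiJ than in C57BL/6J and 5 lower in NZO/HlLtJ than in CAST/EiJ. The highest sums, 3270 CPM of adipocyte and 5210 CPM of oviduct markers, were those of CAST/EiJ 10% fat replicate 2. Some of these markers were near the floor. Adipoq was under 1 CPM in 15 libraries, Lep in 19, Foxj1 in 16 and Dynlrb2 in 21, while Plin1, Fabp4, Pparg, Lpl, Car3, Tppp3 and Rsph1 never were. Of 8 oocyte markers 4 were higher in CAST/EiJ and 4 in NZO/HlLtJ than in C57BL/6J. Of 9 granulosa markers 1 was lower in CAST/EiJ than in C57BL/6J, and 1 was higher in NZO/HlLtJ than in CAST/EiJ. Of 6 theca and stroma markers 3 were higher in CAST/EiJ and 1 in NZO/HlLtJ than in C57BL/6J.

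Stard4, a soluble carrier that moves cholesterol between membranes, ordered the strains without overlap. It was 26.7, 28.6, 24.9 and 25.5 CPM in CAST/EiJ on 10% fat and 27.4, 34.1, 29.1 and 30.9 on 44% fat. It was 36.8, 37.5 and 37.6 CPM in C57BL/6J on 10% fat and 56.5, 37.5, 59.9 and 34.6 on 44% fat. In NZO/HlLtJ it was 71.4, 78.2, 62.9 and 60.7 CPM on 10% fat and 78.2, 86.5, 61.1 and 73.2 on 44% fat. Every CAST/EiJ library lay below every C57BL/6J library, and every NZO/HlLtJ library above, on either diet. The log2 differences were -0.57 ± 0.106 for CAST/EiJ against C57BL/6J, 0.77 ± 0.107 for NZO/HlLtJ against C57BL/6J and 1.34 ± 0.103 for NZO/HlLtJ against CAST/EiJ, with adjusted p of 0.000183, 1.91e-05 and 1.65e-09 by edgeR.

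Sc5d (chr9:42254177-42264300), which adds a double bond to the sterol ring late in the route, had the opposite order. It was 218, 132, 205 and 292 CPM in CAST/EiJ on 10% fat and 200, 479, 159 and 249 on 44% fat, against 80.2, 139 and 84.2, and 120, 129, 149 and 155 CPM, in C57BL/6J. In NZO/HlLtJ it was 64.1, 76.7, 73 and 71.5 CPM on 10% fat and 57.3, 78.6, 50.9 and 50.3 on 44% fat. The NZO/HlLtJ libraries lay below all others, and the CAST/EiJ and C57BL/6J ranges overlapped. The log2 differences were 1.02 ± 0.208, -0.86 ± 0.204 and -1.88 ± 0.203 in the order above, with adjusted p of 0.000468, 0.00417 and 2.74e-07 by edgeR. Dhcr7 (chr7:143823145-143848410), the dehydrocholesterol reductase that acts just after it, was 149, 52.9 and 152, and 142, 56.9, 190 and 54.1 CPM in C57BL/6J on 10% and 44% fat. It was 62.4, 118, 48.7 and 64.9, and 110, 84.6, 267 and 96.2 CPM in CAST/EiJ, and 50.2, 61.1, 87.6 and 42.2, and 59.3, 56.8, 37.6 and 64.2 CPM in NZO/HlLtJ. NZO/HlLtJ was lower than C57BL/6J (-0.997 ± 0.327, adjusted p 0.0319 by edgeR) and than CAST/EiJ (-0.82 ± 0.317, 0.0383), with overlapping ranges; the first call was lost without C57BL/6J 10% fat replicate 1 (0.0942) or 3, C57BL/6J 44% fat replicate 1 or 3, NZO/HlLtJ 10% fat replicate 1 or 4, or NZO/HlLtJ 44% fat replicate 3. The second was lost without CAST/EiJ 44% fat replicate 3 (0.124), CAST/EiJ 10% fat replicate 2, NZO/HlLtJ 10% fat replicate 1, 2 or 4, or NZO/HlLtJ 44% fat replicate 1, 2 or 3.

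Hmgcs1 (chr13:119690462-119708086), at the head of the route, was 694, 229 and 745 CPM in C57BL/6J on 10% fat and 559, 303, 680 and 258 on 44% fat. It was 153, 251, 178 and 152, and 252, 246, 291 and 241 CPM in CAST/EiJ, and 259, 356, 255 and 210, and 326, 392, 213 and 313 CPM in NZO/HlLtJ. C57BL/6J held the highest libraries on both diets, with a low library on 10% fat and 2 low ones on 44% fat that overlapped the other strains. CAST/EiJ was lower by edgeR, at -1.20 ± 0.237 (adjusted p 0.00034), and NZO/HlLtJ was lower at -0.79 ± 0.236 (0.0194; 0.0706 without C57BL/6J 10% fat replicate 1, 0.0702 without replicate 3 and 0.0519 without C57BL/6J 44% fat replicate 3).

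Pmvk (chr3:89454541-89469013), the phosphomevalonate kinase, was 9.95, 11 and 9.55, and 15.8, 9.13, 16.5 and 9.83 CPM in C57BL/6J on 10% and 44% fat. It was 7.2, 8.96, 5.64 and 7.1, and 5.89, 6.13, 6.2 and 6.32 CPM in CAST/EiJ, below every library of both other strains. In NZO/HlLtJ it was 10.3, 11.7, 11.6 and 10.3, and 11.3, 11.1, 11 and 12.4 CPM. The log2 difference was -0.78 ± 0.119 for CAST/EiJ against C57BL/6J and 0.75 ± 0.115 for NZO/HlLtJ against CAST/EiJ, with adjusted p of 2.09e-05 and 1.99e-05 by edgeR; limma on the authors' values gave -0.51 for the first. Acat2 (chr17:12942890-12960747), the cytosolic thiolase, had its higher levels in CAST/EiJ, at 47.3, 66.7, 36.3 and 43, and 43, 40.1, 70.4 and 48.9 CPM. It was 26.5, 24.3 and 26.7, and 53, 23.6, 58.1 and 21.1 CPM in C57BL/6J, and 22.8, 31, 29.8 and 23.5, and 26.7, 35.6, 21.3 and 31.8 CPM in NZO/HlLtJ. NZO/HlLtJ lay wholly below CAST/EiJ (-0.83 ± 0.199, adjusted p 0.00185 by edgeR), and CAST/EiJ was higher than C57BL/6J (0.64 ± 0.207, 0.0157), with replicates 1 and 3 of C57BL/6J on 44% fat in its range.

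Hsd17b7, whose values are given above, had the largest strain difference and the largest spread. It was lower in CAST/EiJ than in C57BL/6J (-2.63 ± 0.639, adjusted p 0.00218 by edgeR) and higher in NZO/HlLtJ than in CAST/EiJ (1.85 ± 0.61, 0.017). Without C57BL/6J 10% fat replicate 1 the first was -1.98 (adjusted p 0.0157), and without the 4 libraries with most adipocyte RNA its adjusted p was 0.051. The second lost its call without NZO/HlLtJ 10% fat replicate 2 (adjusted p 0.066), the library at 279 CPM, with the identifier series as a term (0.0826), with limma on the authors' values (0.0589) and without the 4 libraries with most adipocyte RNA (0.111). Those 4 were CAST/EiJ 10% fat replicate 2, CAST/EiJ 44% fat replicates 1 and 2, and C57BL/6J 44% fat replicate 1. The last held Hsd17b7 at 1210 CPM. Leaving them out was not planned beforehand, and it also leaves fewer libraries in these groups.

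**Figure D5:**
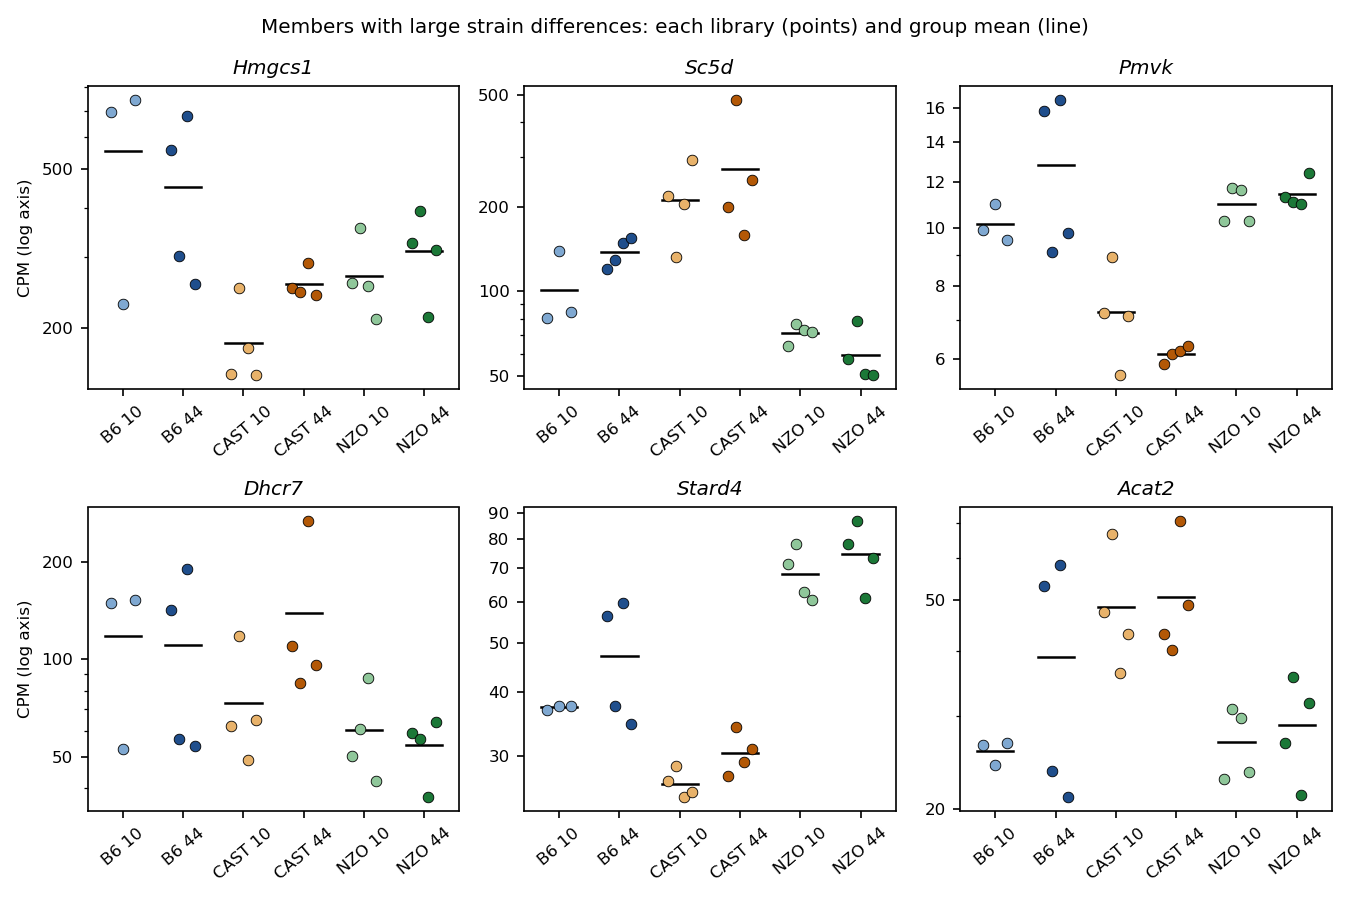
CPM (log axis) of 6 genes with large strain differences, in each library (points) and as the group mean (line), with B6, CAST and NZO for the strains and 10 and 44 for percent fat. Stard4 separates all 3 strains, Pmvk is lowest in CAST/EiJ, Sc5d is lowest in NZO/HlLtJ, and Hmgcs1 and Dhcr7 fall into high and low libraries within C57BL/6J.

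The remaining 15 genes are described by group. Of the mevalonate enzymes, Ggps1, which makes the geranylgeranyl diphosphate used to modify proteins, was lower in CAST/EiJ (-0.31 ± 0.0578, adjusted p 0.000179 by edgeR) and in NZO/HlLtJ (-0.33 ± 0.0578, 0.000286) than in C57BL/6J without overlap of libraries, with libraries of 39.4 to 48.5 CPM in C57BL/6J, 31.9 to 38.2 in CAST/EiJ and 31.8 to 38.1 in NZO/HlLtJ. Idi1, the isopentenyl isomerase, was lower in CAST/EiJ than in C57BL/6J (-0.64 ± 0.196) and higher in NZO/HlLtJ than in CAST/EiJ (0.73 ± 0.19). Mvk and Fdps were called in no comparison. Of the sterol enzymes, Ebp was lower in CAST/EiJ and in NZO/HlLtJ than in C57BL/6J, at -0.37 ± 0.0967 and -0.33 ± 0.0967 (without C57BL/6J 10% fat replicate 1 the adjusted p of the second was 0.0668). Sqle, Cyp51, Tm7sf2 and Nsdhl were called in none, and the epoxidase Sqle ranged from 44.3 to 141 CPM over the 23 libraries.

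Of the sensing genes, Srebf2, which encodes SREBP2, was called in no comparison, with libraries between 120 and 197 CPM. Scap was lower in CAST/EiJ than in C57BL/6J (-0.58 ± 0.152, adjusted p 0.00375 by edgeR), and the library with oviduct RNA was the lowest of all, at 108 CPM against 236 to 264 in the other 3 of its group; without it the difference was -0.48 (0.00114). Insig2 was lower in CAST/EiJ than in C57BL/6J by -0.20 ± 0.0672 (0.0201), a call lost without C57BL/6J 10% fat replicate 1 (0.0548) or replicate 3 (0.0529). Insig1, itself a target of SREBP2, was called in no comparison; in C57BL/6J on 44% fat it was 107 and 115 CPM in replicates 1 and 3 and 61.1 and 61.6 in the other 2. Of the LXR genes, Nr1h2, which encodes LXR beta, ranged from 59.6 to 80.9 CPM and was called in none, and Nr1h3 was lower in NZO/HlLtJ than in C57BL/6J at an adjusted p of 0.047, a call lost in 19 of 31 alternatives, among them limma on the authors' values (-0.40, adjusted p 0.0607), and without any of 17 libraries, with the highest adjusted p without C57BL/6J 10% fat replicate 3 (0.138). Mylip was higher in CAST/EiJ than in C57BL/6J (0.46 ± 0.108, 0.00143) and lower in NZO/HlLtJ than in CAST/EiJ (-0.35 ± 0.103, 0.00772; 0.11 without the 4 libraries with most adipocyte RNA).

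Neighbouring steps of cholesterol handling were followed in 4 lists. In the diet comparisons 0 of 9 genes of the other mevalonate branches and 0 of 15 of SREBP processing were called. Over all genes, 0% were called in C57BL/6J, 0.624% in CAST/EiJ and 0% in NZO/HlLtJ. In CAST/EiJ, 2 of 12 genes of cholesterol uptake, storage and efflux rose on 44% fat: Abcg1, a sterol exporter and LXR target (1.02 ± 0.194, adjusted p 0.0193 by edgeR), and Lipa, the lysosomal lipase that frees cholesterol from its esters (0.74 ± 0.147, 0.0219). Abcg1 was 16, 18.4, 19.8 and 20.7 CPM on 10% fat and 32.5, 57.3, 29.8 and 32.1 on 44% fat, and was the single gene of 7 other LXR targets called. Lipa was 95.5, 69.3, 98.9 and 91.9 CPM against 150, 169, 147 and 128. Neither gene overlapped between the diets. Of the 12 genes 4 were higher without overlap on 44% fat in CAST/EiJ, against 4% of all genes. Both calls were lost without CAST/EiJ 44% fat replicate 2 (adjusted p of 0.0636 for Abcg1 and 0.0837 for Lipa), the library with the most macrophage RNA, at 497 CPM, and that of Lipa also without CAST/EiJ 10% fat replicate 2 (0.0579). Without the 4 libraries with most adipocyte RNA the adjusted p was 0.189 for Abcg1 and 0.217 for Lipa, and with only the groups compared in the fit it was 0.244 and 0.201. Those 4 libraries include CAST/EiJ 10% fat replicate 2 and CAST/EiJ 44% fat replicates 1 and 2, so both groups were smaller in that fit. The part of adipocyte RNA in the lost calls was not tested. For Lipa the diet effect also differed between CAST/EiJ and C57BL/6J (1.37 ± 0.215, adjusted p 0.0118 by edgeR, and 0.0966 without the 4 libraries with most adipocyte RNA). Lipa was 1 of the 12 genes called there, where 0.614% of all genes were called.

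Between strains, of the 12 uptake, storage and efflux genes 2 were higher and 2 lower in CAST/EiJ than in C57BL/6J, 3 higher and 5 lower in NZO/HlLtJ than in C57BL/6J, and 1 higher and 5 lower in NZO/HlLtJ than in CAST/EiJ. Over all genes 46.8%, 23.9% and 48.1% were called in these comparisons. The exporter Abca1 was higher in CAST/EiJ than in C57BL/6J (1.27 ± 0.197) and Scarb1 was lower (-0.60 ± 0.173; adjusted p 0.00744 by edgeR, and 0.108 without the 4 libraries with most adipocyte RNA). The cholesterol acyltransferase Soat1 was higher in NZO/HlLtJ than in C57BL/6J (0.57 ± 0.1), and Scarb1 was lower (-0.98 ± 0.173). Of the 15 genes of SREBP processing, 5 were higher and 2 lower in CAST/EiJ than in C57BL/6J. In NZO/HlLtJ against C57BL/6J 2 of the 15 were higher and 1 lower, of which Rnf145, higher, lost its call in 20 of 31 alternatives and Erlin2, lower, without C57BL/6J 10% fat replicate 1 (adjusted p 0.0577). In NZO/HlLtJ against CAST/EiJ 1 was higher and 5 lower. Of the 9 genes of the other mevalonate branches, 3 were higher in CAST/EiJ than in C57BL/6J and none lower, with Pdss2 first (0.40 ± 0.0713), 1 was higher and 1 lower in NZO/HlLtJ than in C57BL/6J, and 1 was higher and 4 lower in NZO/HlLtJ than in CAST/EiJ.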

How the data were processed

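PolyA RNA of mouse ovary was sequenced as read pairs in 23 libraries. The authors deposited estimated counts per gene, of which 22.4% were not whole numbers (tolerance 1e-06), and log2-scale variance-stabilised values. DESeq2 and the build GRCm38 are named in the submitters' processing notes; the aligner, counter and annotation are not given in the sources used here. Some enzymes and receptors of the pathway are not analysed here.

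Counts were rounded to whole numbers, kept by edgeR's filter (minimum count 10, minimum total 15), scaled by TMM and fitted with the robust quasi-likelihood model over 6 group means, which share 1 estimate of spread (edgeR 4.0.16, R 4.3.3). The 10 comparisons were adjusted by Benjamini-Hochberg over 20189 genes, with a threshold of 0.05. CPM use TMM-scaled totals; levels between genes are per kb of merged exons (GENCODE M21). DESeq2 1.42.0, limma 3.58.1 on the authors' log2 values, other scaling and filters, identifier series as a term and left-out libraries were alternatives.

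The members, lists and tests were chosen with earlier results of these data known. The 12 genes given by library are those with the smallest p for diet and the largest strain differences; related genes are named by smallest p, up to 3 per list and comparison. Genes set beside them (Lrp8, Scarb1, Star, and Lipa and Abcg1 in C57BL/6J) and the split of C57BL/6J libraries were chosen after their values were seen. Libraries singled out in CAST/EiJ and NZO/HlLtJ were chosen in the same way. The labels do not say that libraries are separate animals, and p-values reflect only how far libraries of a group differ, which may be technical. All 33 pairs of libraries within a group differed beyond sampling noise (chi-square per degree of freedom 12.41 to 220.8).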

Additional observations from a re-analysis of the deposited data

Results flagged for a closer look

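Each set of 4 libraries was checked for a library whose gap to the nearest other exceeded Dixon's 95% critical value. About 1 in 20 sets would hold such a library if values were normal and sets independent. The genes share libraries and are not independent, so no excess over that rate is shown. Of 135 sets (27 genes in 5 groups), 14 (10.4%) held such a library. CAST/EiJ 44% fat replicate 3 had 4 of these: Mvd at 21.3 CPM (others 14.8 to 15.5), Sqle at 77 (58.4 to 61), Hsd17b7 at 130 (46.5 to 50.8) and Dhcr7 at 267 (84.6 to 110). CAST/EiJ 10% fat replicate 2, the library with oviduct and adipocyte RNA, had 3: Sqle at 83.3 CPM (44.3 to 50.5), Nsdhl at 56.4 (23.1 to 28.4) and Nr1h3 at 11 (3.92 to 5.05).

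NZO/HlLtJ 10% fat replicate 2 was high for Lss, at 73.6 CPM (55.2 to 57.7), and for Hsd17b7, at 279 (43.7 to 57). NZO/HlLtJ 44% fat replicate 3 was low for Hsd17b7, at 47.9 CPM (344 to 399). NZO/HlLtJ 44% fat replicate 4 was high for Mvk, at 17.9 CPM (13.6 to 14.1), and for Scap, at 328 (250 to 261). Mvk was low in CAST/EiJ 10% fat replicate 3, at 14.1 CPM (18.2 to 18.8), and Insig2 was high in CAST/EiJ 44% fat replicate 1, at 39.5 (34.4 to 34.9). The C57BL/6J 44% fat libraries, 2 high and 2 low, gave none, since the rule tests for a single library.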

How the results depend on the processing

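No paired analysis was possible because the replicate numbers follow the order of deposit and pair no libraries. With the number series of the library identifiers as a term, which the labels do not call a batch, the calls for Dhcr7 (adjusted p 0.0722) and Nr1h3 (0.092) in NZO/HlLtJ against C57BL/6J and for Hsd17b7 in NZO/HlLtJ against CAST/EiJ (0.0826) were lost, and no other call of the 27 genes was. Each of 31 alternative fits was run. Counts of the 27 genes called for diet and its interactions stayed at 0 with each library left out (0 to 0), and DESeq2 called 1 in CAST/EiJ. For CAST/EiJ against C57BL/6J the leave-one-out counts were 12 to 16, for NZO/HlLtJ against C57BL/6J 3 to 8 (3 without C57BL/6J 10% fat replicate 1, 4 without C57BL/6J 10% fat replicate 3 or 44% fat replicate 3) and for NZO/HlLtJ against CAST/EiJ 8 to 11. With limma on the authors' values, NZO/HlLtJ against C57BL/6J had 4. The main fit called 13, 7 and 10 of the 27 in these strain comparisons, where 46.8%, 23.9% and 48.1% of all genes were called. Shares of all genes in the alternative fits are not given here, so a fall in these counts is not shown to be particular to these genes. Of 2780 alternative values of 90 single results, 2663 kept their direction and side of the threshold, 116 lost the call, 1 gained it and 0 reversed; the cause was not tested. The call for Nr1h3 in NZO/HlLtJ against C57BL/6J was lost in 19 of 31 fits (adjusted p up to 0.138), and those for Dhcr7 in 11 and 12. With 3 or 4 libraries a group, a wide spread such as that of Hsd17b7 limits what can be called.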
